A study of Mus musculus with 2 samples.

Results

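F-box proteins are the substrate receptors of SCF ubiquitin ligases, and their messenger RNAs were followed here in mouse embryonic stem cells (mESCs) with and without knockdown of the deubiquitinase USP21. The genes were chosen by name: a symbol that starts with Fbxl, Fbxo or Fbxw followed by a number. Of 23889 symbols in the deposited tables, 77 did so, of which 19 were Fbxl, 37 were Fbxo and 21 were Fbxw symbols. One of the 77, Fbxl12os, is annotated as an antisense RNA near Fbxl12 and encodes no F-box protein.

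An SCF ligase is built from the adaptor Skp1, the scaffold Cul1, the RING protein Rbx1, which brings in the ubiquitin-conjugating enzyme, and 1 exchangeable F-box protein. The F-box motif binds Skp1, and the rest of the protein holds the substrate, often after the substrate has been phosphorylated. Fbxl proteins carry leucine-rich repeats, Fbxw proteins carry WD40 repeats, and Fbxo proteins carry other domains or none that is shared. In pluripotent cells this family is of interest because FBXW8, FBXW7 and the β-TrCP proteins (Btrc and Fbxw11) have been described as receptors for Nanog, c-Myc and Klf4, respectively.

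The cells were E14, a feeder-free mESC line that the labels derive from a 19/Ola mouse, grown in serum medium with LIF, the cytokine that holds mESCs undifferentiated. One culture labelled normal received a control shRNA and 1 labelled USP21 knockdown received an USP21 shRNA by transfection, and both were harvested after 3 days for RNA sequencing. There was 1 library per group, so no value below has a replicate error, no test was possible, and every difference is between 2 libraries and not between 2 conditions. Which of the study's USP21 shRNAs was used is not given in the labels. Levels are FPKM (fragments scaled to transcript length and library size), which can be compared between genes, and differences are log2((USP21 shRNA + 0.1)/(control shRNA + 0.1)), called the log2 ratio, which understates the difference of low genes. Where 2 levels are joined by "and", the control shRNA library comes first and the USP21 shRNA library second.

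Usp21 itself was at FPKM 26.2 and 3.49. The 8 mESC markers examined were all present, between 85.0 and 1849 in the control library and between 76.5 and 1285 in the other. Lum, a fibroblast marker, was listed at 0 in both. Of the 4 oocyte markers, Nlrp5 and Oosp1 were listed at 0 in both, while Zp3 was at 1.10 and 1.21 and Gdf9 at 0.509 and 0.388. The 6 fibroblast markers summed to 18.2 and 6.02, nearly all of it Thy1 (17.3 and 5.29). The 5 markers of primitive endoderm summed to 43.9 and 40.7 but differed in direction. Dab2 (23.1 and 16.4) and Sox17 (4.02 and 3.54) were lower with the USP21 shRNA. Gata6 (8.60 and 10.8), Pdgfra (2.48 and 4.22) and, barely, Gata4 (5.70 and 5.78) were higher. The files hold no counts, so the number of fragments behind a value is unknown. Relative depth was estimated from 1439 low genes with values above 0 in both libraries. The most common log2 of control over USP21 shRNA level among them, without a pseudocount, was -0.3. If that value stands for equal numbers of fragments in both libraries, the control library was the deeper one by about 1.23 times. Over 11574 genes with a mean FPKM of at least 1 and an annotated transcript, longer transcripts tended to have higher log2 ratios (Spearman correlation 0.315, over genes and so not over independent replicates), and values corrected for length are given beside the differences that stand out.

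A mean FPKM of at least 1 over both libraries was reached by 52 of the 77 symbols, namely 13 Fbxl, 31 Fbxo and 8 Fbxw genes. Of the other 25 symbols, 9 were listed at 0 in both libraries, 4 were listed at 0 with the USP21 shRNA only, and 12 had low values in both. The summed FPKM of all 77 was 801 and 770, or 0.131% and 0.142% of the sum over all genes. The mean levels of the 52 genes had a median of 10.8, against 12.5 for the 11642 genes of all kinds past the filter, and 17 of the 52 reached an FPKM of 20.

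The 3 most abundant F-box messages differed widely in role. Fbxo22, whose product targets histone demethylases of the KDM4 family, was at 58.5 and 56.4. Fbxo5 encodes Emi1, an inhibitor of the anaphase-promoting complex, and had 54.9 and 48.5. Fbxo15, a gene known for its expression in undifferentiated ES cells under Oct4 and Sox2, had 55.4 and 39.4. These 3 genes were close to each other in the control library and further apart in the other, with Fbxo15 the lowest there. Others among the 10 highest were Fbxl19, a CXXC zinc finger protein that binds CpG islands (35.2 and 44.1), Fbxw11 (35.5 and 30.02), Fbxw2 (30.1 and 29.8), Fbxl14, a receptor for Snail (29.7 and 29.8), Fbxw8 (26.5 and 26.0) and Fbxo28 (22.3 and 24.7). Of these 6, Fbxl19 had the widest gap between the libraries.

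**Figure D1:**
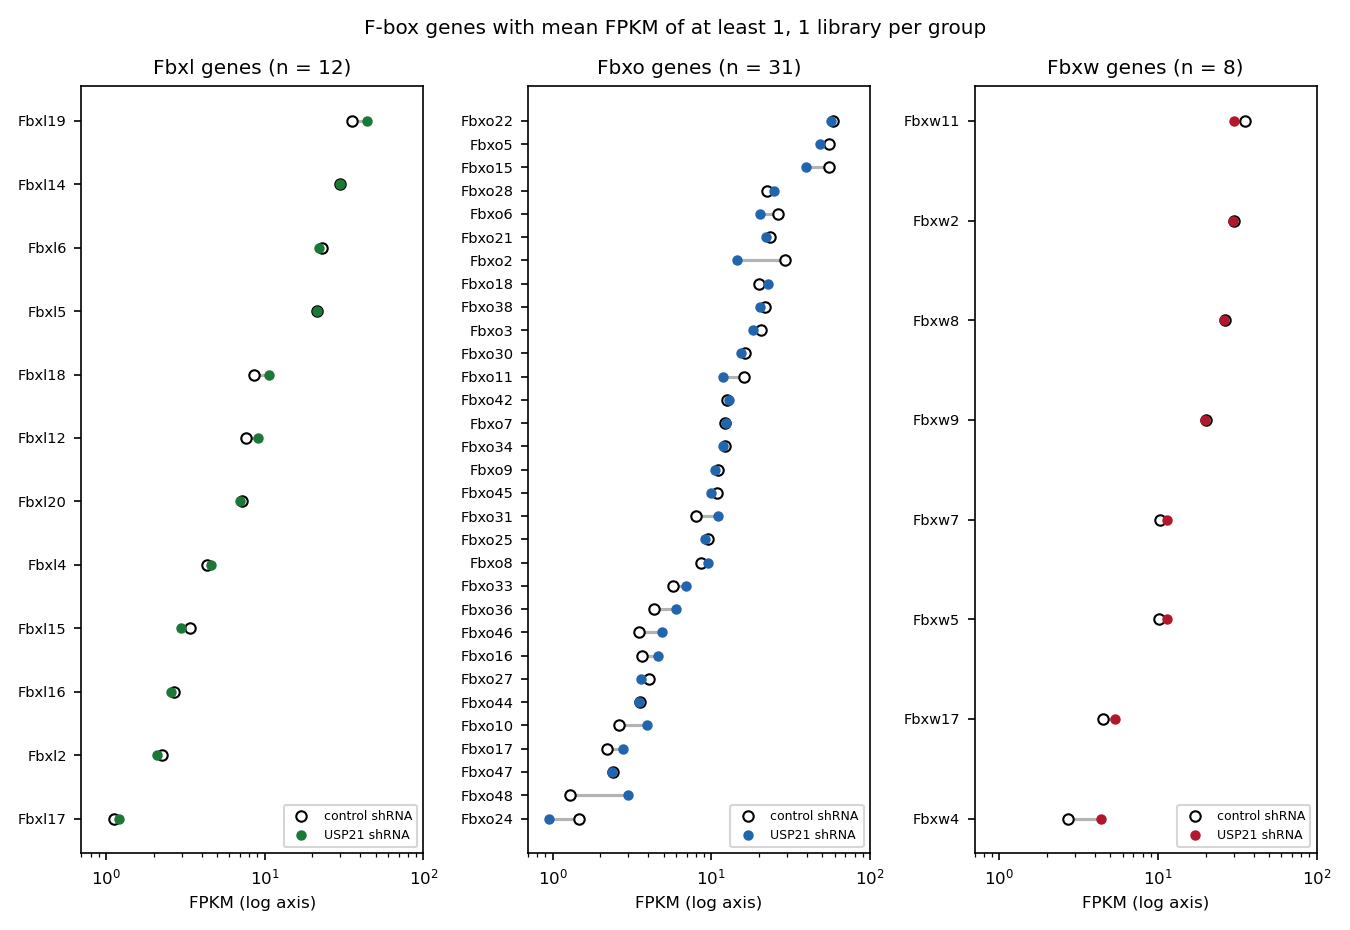
FPKM on a log axis of 51 of the 52 F-box genes with a mean FPKM of at least 1, by subfamily, with an open circle for the control shRNA library, a filled circle for the USP21 shRNA library and a grey line between them. For most genes the circles touch or overlap, and the longest lines belong to Fbxo48, Fbxo2, Fbxw4, Fbxo10 and Fbxo24.

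The family as a whole was centred on no difference. The median log2 ratio of the 52 genes was -0.01, against 0.00 over all 11642 genes (-0.0118 and 0.0024 before rounding), and the middle 50% of values ran from -0.09 to 0.21 against -0.21 to 0.23. The 2 libraries lay within 1.25-fold of each other for 39 of the 52 genes (75%), as they did for 65.4% of all genes. Values on the log2 scale were above 0 for 24 genes and below 0 for 28. The sign is not firm for many of them, since rescaling both libraries to the same sum moved the median of all genes to 0.18 and put 20 of the 28 above 0. By subfamily the medians were 0.0033 for Fbxl, -0.04 for Fbxo and 0.07 for Fbxw genes, and the Fbxl genes had the narrowest range, from -0.20 to 0.32.

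Few members passed a fold threshold. Thresholds were applied to the log2 ratio, pseudocount included. With a 2-fold threshold 1 of the 52 was higher with the USP21 shRNA and none was lower, where 1.98% and 1.76% of all genes past the filter were. With a 1.5-fold threshold 2 were higher and 1 was lower, where 7.2% and 5.89% of all genes were. As a share of the 52, none of these counts exceeded the share over all genes. Low genes scattered more. At a mean FPKM of 1 to 5, with 16 F-box genes, 4.38% of all genes were at least 2-fold higher and 4.18% lower, and 13.4% and 10.6% passed 1.5-fold. At 5 to 20, with 19 F-box genes and none past 1.5-fold, these shares were 1.49%, 1.05%, 6.82% and 4.33%. At 20 and over, with 17 F-box genes, they were 0.708%, 0.708%, 3.07% and 4.01%. Each F-box gene was therefore set beside genes of its own level, and 50 of the 52 lay between the 5th and the 95th percentile of the log2 ratios of genes in the same range of levels. Outside lay Fbxo48 and Fbxo2. By definition 5% of genes lie beyond each of these percentiles, so 2 of 52 is not more than the share over all genes.

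**Figure D2:**
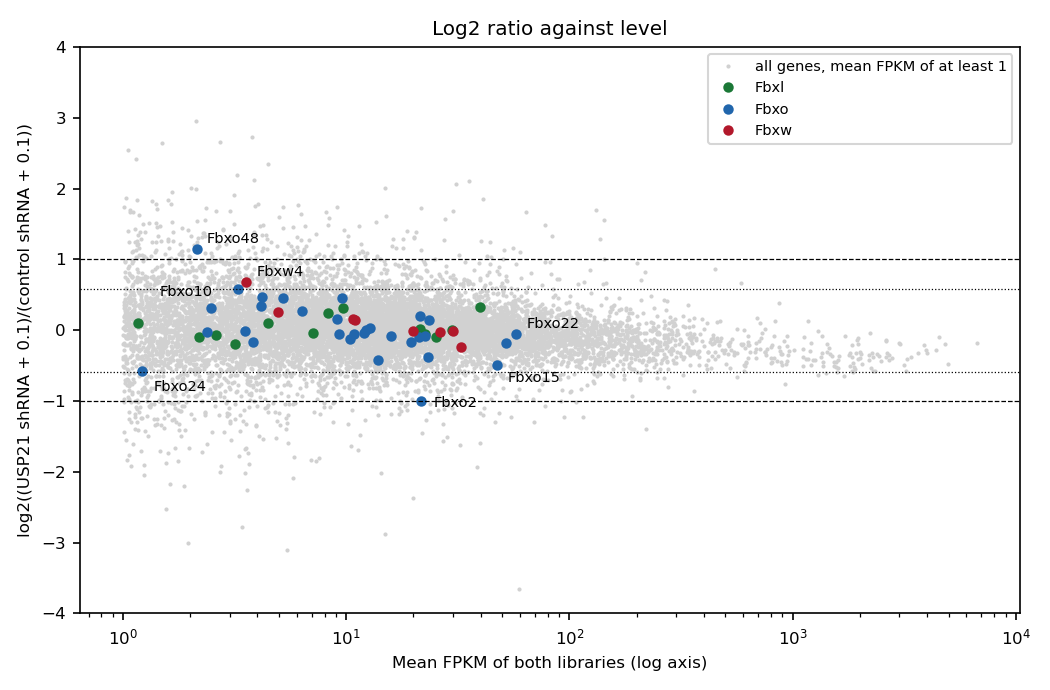
Log2 ratio of the USP21 shRNA over the control shRNA library against the mean FPKM of both (log axis), with all genes past the filter in grey and the F-box genes in colour by subfamily. Dotted and dashed lines mark 1.5-fold and 2-fold, 4 genes of other kinds with log2 ratios beyond 4 in size are not drawn, and among F-box genes Fbxo48 lies above and Fbxo2 just short of the 2-fold lines.

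Fbxo48 (chromosome 11 of GRCm38, 16951375 to 16954772, plus strand) was at FPKM 1.29 and 2.98. This is 2.31-fold higher, with a log2 ratio of 1.15, and 1.22 after correction for length. Its level puts it among the genes that scatter most. No 31-base word of its transcript occurs in another annotated gene. Fbxw4 (chromosome 19, 45578254 to 45660312, minus strand), the gene of the mouse limb malformation dactylaplasia, was the other one past 1.5-fold. It had 2.71 and 4.38, a log2 ratio of 0.67, or 0.75 corrected for length, at a level where 13.4% of genes passed that threshold. Fbxo10, a receptor described for the cell survival protein Bcl2, lay at the threshold, with 2.62 and 3.96. The plain ratio of these levels is 1.51, and the log2 ratio of 0.58 falls short of 1.5-fold through the pseudocount.

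Fbxo2 lay furthest in the other direction. Its product, known mainly from neurons, binds glycoproteins with high-mannose sugars that are to be degraded. The FPKM was 28.95 and 14.5, a log2 ratio of -0.99, just short of 2-fold, and -0.85 corrected for length. Among genes with a mean FPKM of 20 and over, 0.708% were at least 2-fold lower and 4.01% at least 1.5-fold lower. Fbxo24, at a much lower level, came next with 1.47 and 0.954. It was 1.54-fold lower by the plain ratio, and its log2 ratio of -0.57 falls short of 1.5-fold through the pseudocount.

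Fbxo2 lies in a row with 2 relatives on chromosome 4, and the 3 genes differed by unequal amounts. Fbxo2 (148160621 to 148166424, plus strand) and Fbxo44 (148152800 to 148160482, minus strand) point away from each other, with 139 bases between their annotated 5′ ends, and Fbxo6 (148145716 to 148152140, minus strand) follows 660 bases past the 3′ end of Fbxo44. Fbxo6, which also binds glycoproteins, had an FPKM of 26.4 and 20.2, with a log2 ratio of -0.38. Fbxo44 had 3.55 and 3.52, with a log2 ratio of -0.01. So the gene nearest to the start of Fbxo2 differed by less than 1.25-fold between the libraries. The annotated exons of these 3 genes overlap no other gene, and their transcripts share no 31-base word with one.

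Fbxo15 (chromosome 18, 84934782 to 84981473, plus strand) had a log2 ratio of -0.49, and of -0.44 corrected for length. All 8 mESC markers also had log2 ratios below 0, with sums of 4270 and 3220, and their part in the Fbxo15 value was not tested. On rescaling to equal sums 2 of the 8, Sox2 and Klf4, turned above 0. In such bulk RNA, fewer undifferentiated cells and less RNA per cell cannot be told apart. Fbxo11, a receptor for the repressor Bcl6, had 16.0 and 11.9, with a log2 ratio of -0.42. Of the 28 genes with a log2 ratio below 0, 8 stayed there on rescaling to equal sums, namely Fbxo2, Fbxo24, Fbxo15, Fbxo11, Fbxo6, Fbxw11, Fbxl15 and Fbxo5. Rescaling raised the values by similar amounts, so these are the 8 with the lowest log2 ratios. Fbxl15 and Fbxo5 stayed barely below 0, at -0.027 and -0.0018. The share of all genes that stayed below 0 was not counted.

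The receptors described for pluripotency factors showed small differences. Fbxw8, described for Nanog, had an FPKM of 26.5 and 26.0, with a log2 ratio of -0.03, which turned to 0.14 on rescaling to equal sums. Nanog RNA itself was at 467 and 258. Fbxw7, described for c-Myc and cyclin E, had 10.4 and 11.5, with a log2 ratio of 0.14. Fbxw11, or β-TrCP2, had a log2 ratio of -0.24, and its close relative Btrc (β-TrCP1), whose symbol falls outside the naming rule, was at 8.14 and 9.34. As deposited, none of these 4 receptor genes reached 1.25-fold. On rescaling to equal sums the log2 ratios were 0.373 for Btrc, 0.317 for Fbxw7 and -0.064 for Fbxw11, and only Btrc passed 1.25-fold. The exons of Fbxw8 overlap those of Gm9754 on the other strand by up to 1680 bases, and the sources used here do not say whether the library kept strand.

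A set of 8 genes was at least 1.25-fold higher with the USP21 shRNA, and apart from Fbxo48, Fbxw4 and Fbxo10 it held Fbxo46 (3.52 and 4.90), Fbxo36 (4.36 and 6.03), Fbxo31 (8.03 and 11.0), Fbxo16 (3.64 and 4.65) and Fbxl19. FBXO31 is known as a receptor for cyclin D1 after DNA damage. The 5 that were at least 1.25-fold lower were Fbxo2, Fbxo24, Fbxo15, Fbxo11 and Fbxo6. These are all Fbxo genes, but so were 31 of the 52 genes past the filter. The 8 higher genes were Fbxo genes too, except for Fbxw4 and Fbxl19. Within 1.25-fold lay 75% of the 52 genes and 65.4% of all genes past the filter. The shares of all genes beyond 1.25-fold in each direction were not counted. Fbxo46 overlaps Qpctl on the other strand by up to 471 bases.

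By the log2 ratio, the other genes past the filter lay within 1.25-fold between the libraries. Among the Fbxl genes, the iron-sensing receptor Fbxl5 had 21.3 and 21.4, Fbxl6 had 22.9 and 22.1, and Fbxl4, which acts at mitochondria, had 4.30 and 4.61. Fbxl18 had 8.57 and 10.7, Fbxl12 had 7.63 and 9.01, and Fbxl20, a receptor at synapses, had 7.18 and 7.01. The largest gap among these 6 was that of Fbxl18. Fbxl15 (3.41 and 2.96), Fbxl16 (2.68 and 2.56), Fbxl2 (2.25 and 2.10) and Fbxl17 (1.13 and 1.21), a quality control receptor for BTB proteins, were lower in level. Fbxl12 overlaps Ubl5 on the other strand by up to 1438 bases, and Fbxl20 has 7.34% of its 31-base words in common with others.

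Among the Fbxo genes at mid level, Fbxo21 had 23.3 and 22.0, Fbxo38 had 21.9 and 20.4, and Fbxo18, which encodes the DNA helicase Fbh1, had 19.9 and 22.8. Fbxo3 had 20.7 and 18.4, Fbxo30 had 16.3 and 15.4, Fbxo42 had 12.6 and 12.9, and Fbxo7, mutated in a form of early parkinsonism, had 12.3 and 12.4. Levels in this set thus ran from about 12 to 23. Fbxo34 (12.2 and 11.9) is less certain, since 34.2% of its 31-base words occur in other genes, and so, to a lesser degree, is Fbxo5, with 15.3%. Fbxo9 (11.0 and 10.6), Fbxo45, a neuronal ligase subunit (10.9 and 9.96), Fbxo25 (9.48 and 9.17), Fbxo8 (8.59 and 9.57) and Fbxo33 (5.74 and 6.92) were lower in level. Lower still were Fbxo27 (4.03 and 3.59), Fbxo17 (2.21 and 2.76) and Fbxo47 (2.41 and 2.36). The plain ratio of Fbxo17 is 1.25, and its log2 ratio of 0.31 falls short of 1.25-fold through the pseudocount. The Fbxw genes within 1.25-fold and not yet given were Fbxw9 (19.9 and 19.8), Fbxw5 (10.1 and 11.4) and Fbxw17 (4.50 and 5.40).

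Several members were low in both libraries. Fbxo32, or atrogin-1, the receptor of muscle atrophy, had 0.135 and 0.254, and Fbxo40, also known from muscle, had 0.0209 and 0.0384. The 6 muscle markers summed to 12.3 and 26.3, with Tnnt1 at 5.91 and 23.996 and Myl7 at 5.72 and 1.34, and their part in these values was not tested. Fbxo43, or Emi2, which arrests the egg in meiosis, had 0.0893 and 0.100. These levels are too low to read a direction from. The same holds for Fbxo39 (0.225 and 0.0385), Fbxo41 (0.289 and 0.463), Fbxl21 (0.417 and 0.389), Fbxl22 (0.263 and 0.242), Fbxl7 (0.465 and 0.570), and the antisense RNA Fbxl12os (0.105 and 0.215). Fbxw10 (0.824 and 1.15), Fbxl8 (0.989 and 0.927) and Fbxo4 (0.751 and 0.993) lay just under the filter, with means of 0.989, 0.958 and 0.872. Just above it came Fbxl17 and Fbxo24, with means of 1.17 and 1.21. Fbxl13 had 0.0152 in the control library and was listed at 0 in the other.

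A cluster of 12 Fbxw genes on chromosome 9, between 109139447 and 109746089 of GRCm38, accounted for most of the silent members. It is a rodent expansion of the family whose transcripts are known from oocytes. Fbxw15, Fbxw16, Fbxw18, Fbxw19, Fbxw21, Fbxw22, Fbxw24, Fbxw26 and Fbxw28 were listed at 0 in both libraries. Fbxw13, Fbxw14 and Fbxw20 had 0.0481, 0.0481 and 0.0232 in the control library and were listed at 0 with the USP21 shRNA. These genes share between 5.4% and 81.4% of their 31-base words with other genes. The highest share was that of Fbxw14, of whose words 77.3% occur in Fbxw28. How fragments were divided among the genes of the cluster is therefore uncertain.

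The start sites of this cluster also differed from those of the expressed members in CG dinucleotides, the sites of DNA methylation. In 300-base windows from RefSeq (GRCm38.p6, 250 bases before to 50 bases after the start, CG being the same on both strands, and the start with the most CG taken for each gene), 57 of the 77 symbols were found. The 10 genes of the cluster among them had 0 to 4 CG per window, with a median of 1. The 38 F-box genes past the filter had 5 to 56, with a median of 21.5, against a median of 23 for all genes past the filter. So the 2 sets did not overlap in CG count by this choice of start. With the start of fewest CG, the expressed Fbxw7 had 1, within the range of the cluster. Over all 16706 genes with a window, 26.3% had at most 4 CG, and of those 6.4% reached a mean FPKM of 1, against 69.2% of the rest. Low levels at CG-poor starts were thus also seen in genes of other kinds. Within the family, Fbxw10 and Fbxo40 lay outside the cluster with 3 CG each, and both were under the filter. High CG did not go with RNA in every member: Fbxl7, with 31, Fbxl21, with 27, Fbxl13, with 22, Fbxo39, with 19, and Fbxo41, with 16, were all under the filter.

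The 30 bases across the start site, 15 before it and 15 from it, are shown for 5 expressed members and 5 of the cluster as examples, 5′ to 3′ on the strand of the gene, with CG in capitals.
Fbxo22 (chr9:55208920-55208949, plus): ggCGtgtccagtacCGgaagCGgcccacCG
Fbxl14 (chr6:119479653-119479682, plus): ggatgtgaggccCGagCGgcCGCGCGgggg
Fbxo42 (chr4:141147907-141147936, plus): cagCGcatgCGcactgCGCGctgtCGtctc
Fbxo2 (chr4:148160653-148160682, plus): agCGctcaggctcttctctcttgacagcac
Fbxo48 (chr11:16951360-16951389, plus): atgaaggccttcCGgaaaagattcaaatcc
Fbxw14 (chr9:109287662-109287691, minus): gatcaagctggggaggagaaaggagagtca
Fbxw28 (chr9:109339645-109339674, minus): gatcaagctggggaggagaaaggagagtca
Fbxw15 (chr9:109568248-109568277, minus): agctggggaggagaaagaagagtcagtgtg
Fbxw16 (chr9:109449126-109449155, minus): aagctgggaagagaaaggagagtgagtgtg
Fbxw19 (chr9:109495840-109495869, minus): gtgtCGacttaggccactgaagatggagat
Over these 30 bases Fbxo2 and Fbxo48 carry 1 CG each, as does Fbxw19, so for them the difference lies in the wider window. Fbxw14 and Fbxw28 were identical over all 30 bases, and Fbxw15 and Fbxw16 at 23 of 30 without gaps. The expressed genes shown carry 20 CG (Fbxo22), 56 (Fbxl14), 37 (Fbxo42), 21 (Fbxo2) and 21 (Fbxo48) in the whole window. Fbxo2 and Fbxo48, the members that differed most between the libraries, thus had CG counts close to the median of the expressed members.

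**Figure D3:**
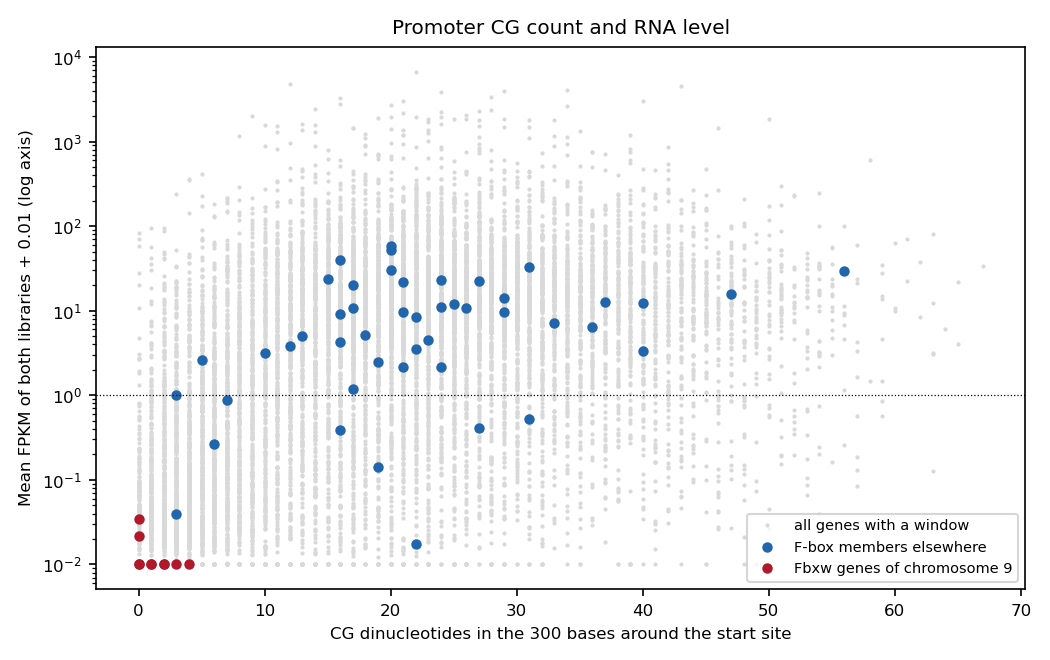
Mean FPKM of both libraries plus 0.01 (log axis) against the number of CG dinucleotides in the 300 bases around the start site, with all 16706 genes in grey, the chromosome 9 Fbxw genes in red and the other F-box members in blue. The 10 red points lie at 4 CG or fewer and under an FPKM of 0.1, and most blue points lie above the dotted line at FPKM 1 and above 10 CG.

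The partners of F-box proteins were taken as lists. In the SCF core, Skp1a was at FPKM 269 and 202 (log2 ratio -0.42), Cul1 at 45.1 and 52.1 (0.21) and Rbx1 at 68.8 and 61.1 (-0.17). None passed 1.5-fold. The adaptor Skp1a thus exceeded every single F-box message in level, while all F-box messages together exceeded Skp1a.

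F-box genes with other names were taken as a list too. Of 9 such genes, 6 passed the filter, with a median log2 ratio of 0.51, and 3 of these were at least 1.5-fold higher and none lower, where 7.2% and 5.89% of all genes past the filter were. Skp2, the receptor for the cell cycle inhibitor p27, was at FPKM 11.5 and 28.8, which is 2.5-fold higher (log2 ratio 1.32, or 1.17 corrected for length). The histone demethylase Kdm2a had 11.0 and 17.9, and Lmo7 had 6.83 and 10.7, with log2 ratios of 0.69 and 0.64. These 2 have long transcripts, and after length correction the values were 0.47 and 0.50, short of 1.5-fold. Ccnf, the F-box protein cyclin F, was at 98.8 and 72.2, and Kdm2b was at 31.4 and 41.1. With a mean of 20.1, Skp2 falls just among genes with a mean FPKM of 20 and over, of which 0.708% were at least 2-fold higher. At 5 to 20, where its control level lies, that share was 1.49%.

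The regulators of the ligases had list medians near 0, and their counts past 1.5-fold stand beside the same 7.2% of all genes higher and 5.89% lower. The other cullins and Rnf7 had a median log2 ratio of -0.0011 over 7 genes, with Cul2, the scaffold of the VHL ligase, as the 1 gene past 1.5-fold (34.2 and 18.7, log2 ratio -0.87). Cul7, the scaffold that pairs with Fbxw8, was at 23.3 and 22.5. The 14 genes of neddylation, the attachment of Nedd8 that switches cullins on, and of exchange by Cand1 had a median of 0.09. Cand2 was past 1.5-fold (10.6 and 16.5, log2 ratio 0.63, or 0.53 corrected for length), and Senp8, which processes Nedd8, had the lowest value of this list (5.67 and 3.89, log2 ratio -0.53). The 9 genes listed for the COP9 signalosome, which removes Nedd8, all lay within 1.5-fold, with a median of -0.04. Its catalytic subunit Cops5 was the lowest of them (126.7 and 93.2, log2 ratio -0.44). The 7 ubiquitin-conjugating and ARIH partners had a median of -0.04 and none passed 1.5-fold. Their ends were Ube2d2a (87.8 and 75.7) and Ube2g1 (38.9 and 46.5).

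**Figure D4:**
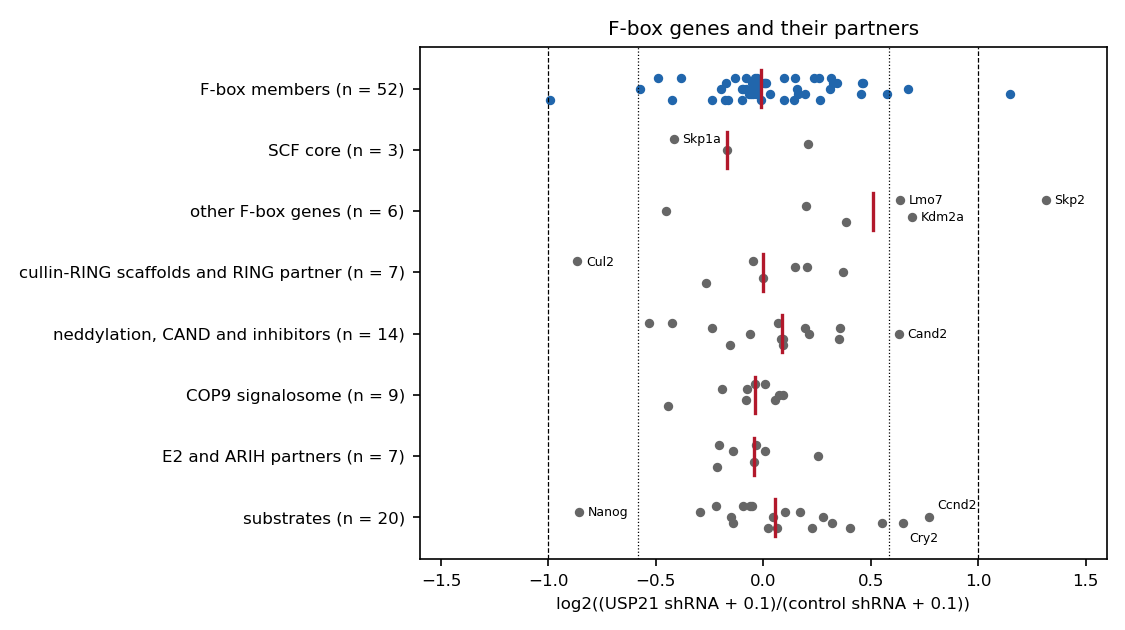
Log2 ratio of the USP21 shRNA over the control shRNA library for the 52 F-box genes and for lists of partner genes past the same filter, 1 point per gene, with a red bar at each median and with dotted and dashed lines at 1.5-fold and 2-fold. Most points lie between the dotted lines, and of the partner genes Skp2 lies furthest to the right and Cul2 and Nanog furthest to the left.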

How the data were processed

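RNA of 2 E14 cultures was sequenced, 1 library per group, so p-values, intervals and leave-one-out values could not be given. The authors deposited FPKM values, 1 per gene symbol and library. Per the labels, the submitters' processing notes name CASAVA 1.8.2, TopHat2 2.0.14, Cufflinks 2.2.1 and the build mm9; the gene annotation is not given in the sources used here. FPKM scales with depth and length only, and the sums over all genes were 613617 and 543206.

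Log2 ratios used a pseudocount of 0.1, and genes with a mean FPKM of at least 1 over both libraries were counted past 1.5-fold and 2-fold. Positions, transcript lengths and shared 31-base words came from GENCODE M21 (GRCm38), with the transcript of the longest coding sequence and with 910 symbols matched through RefSeq synonyms. The files hold no coordinates. Length was corrected by lowess (span 0.3). The script was checked on simulated data. Alternatives were pseudocounts of 1 and 0.01, other filters, TPM scaling, median centring and length correction.

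One gene is counted but not reported by name here. The genes named were those past 1.5-fold, the 10 highest, those with a role in ES cells, those at 0 and the ends of each partner list; other members were named after their values were seen. The members and lists were chosen with earlier results of these data known. Python 3.11.15, numpy 2.4.6, pandas 2.3.3, statsmodels 0.14.6 and matplotlib 3.10.9 were used.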

Additional observations from a re-analysis of the deposited data

How the results depend on the processing

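The median of the F-box genes moved to 0.16 with TPM scaling, beside a shift of the median of all genes to 0.18, and moved by less than 0.1 in the other settings. The genes past 2-fold became 0 higher with a pseudocount of 1 or a filter at FPKM 5, and 1 lower with no filter (Fbxo39). Those past 1.5-fold upwards became 1 with a pseudocount of 1, 4 with no filter, 0 with a filter at FPKM 5 and 6 with TPM, which added Fbxo10, Fbxo31, Fbxo36 and Fbxo46. Those past 1.5-fold downwards became 2 with a pseudocount of 0.01 (adding Fbxo24, with Fbxo10 added upwards) or no filter. Fbxo2 was past 1.5-fold in every setting run. With TPM the list medians were 0.0043 for the SCF core, 0.69 for other F-box genes, 0.17 for cullins, 0.26 for neddylation, 0.135 for the COP9 signalosome, 0.13 for E2 and ARIH partners and 0.23 for substrates. With length correction the other F-box genes had a median of 0.38 with 1 gene past 1.5-fold upwards, the neddylation list had 0, and the E2 and ARIH median was -0.15. No paired analysis was possible because each group has 1 library. Depth limits the genes under FPKM 1, where a few fragments set a value.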

Other observations

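Transcripts of 22 proteins described as targets of F-box receptors were also read, since a receptor acts on protein and the RNA shows only the supply. Of these 20 passed the filter, with a median log2 ratio of 0.05, and 2 were at least 1.5-fold higher and 1 lower, where 7.2% and 5.89% of all genes past the filter were. The cyclin gene Ccnd2 had control and USP21 shRNA levels of FPKM 3.85 and 6.65, and Cry2, a cryptochrome of the clock, had 6.65 and 10.5. Nanog was the 1 gene lower, at 467 and 258. Myc, a target of Fbxw7, was at 26.7 and 22.8, and Ccne1, which encodes the cyclin E that Fbxw7 also binds, was at 150.01 and 182. Ctnnb1, the β-catenin message whose protein is bound by the β-TrCP receptors, was at 312 and 283, and Cdkn1b, which encodes the Skp2 target p27, was at 32.9 and 31.7.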
